A study of Mus musculus with 31 samples.

Results

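Transcripts of the oocyte linker histone, of 7 further genes for replacement histones, and of the proteins Npm2 and Hira, which handle histones around fertilization, were examined in single 2-cell mouse embryos. The 10 genes were taken by name from a deposited table of 20544 gene symbols. Of these, 5 stand in the table under a newer symbol, namely H1f8 (older name H1foo), H1f10 (H1fx), H2az1 (H2afz), H2az2 (H2afv) and Macroh2a1 (H2afy), and the other 5 (H1f0, H3f3a, H3f3b, Npm2 and Hira) under the name by which they were chosen. Every embryo was wild type and came from in vitro fertilization of eggs of superovulated CD1 females, 8 to 10 weeks old, with sperm of C57BL/6J males, 12 to 14 weeks old. The 16 control-generated embryos came from sperm kept in complete medium. The 15 SER-generated embryos came from sperm that underwent sperm energy restriction and recovery (SER), in which sperm stood without energy substrates for 15 to 45 min, until they no longer moved, and then received glucose and pyruvate again. One cauda epididymis of a male went to each medium, sperm and eggs were kept together for 4 h, and embryos were collected at 32 h after insemination. Each embryo gave 1 Smart-seq3 library, a protocol that covers whole transcripts. The labels tie no embryo to a male, a female, a dish or one of the batches the study describes. Embryos of 1 male or batch are not independent, so the p-values below measure only the spread between these embryos, not between males or batches.

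Histones package DNA, and replacement variants are built into chromatin outside DNA replication, whereas the bulk histones of dividing cells are made during it. The mouse egg stores transcripts and proteins for this purpose. Sperm DNA arrives wrapped around protamines, and after fertilization it is repackaged with histones from the egg. H1f8 is the linker histone of oocytes and early embryos, and other linker histones take its place as development proceeds. H3f3a and H3f3b both encode histone H3.3, and Hira belongs to the complex that deposits H3.3 outside replication, including on paternal DNA in the zygote. H2az1 and H2az2 encode the H2A.Z variants, found at gene starts and regulatory elements, and Macroh2a1 encodes macroH2A1, a variant with a large extra domain. Npm2, nucleoplasmin 2, is a maternal histone chaperone of the egg. At the 2-cell stage maternal transcripts are being degraded while the embryonic genome becomes active, so a transcript in these libraries may be of either origin.

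The paired genes of H3.3 and of H2A.Z have different coding sequences, which is why reads can be assigned to one or the other. H3f3a (chr1:180800832-180813943, minus strand, GRCm38, GENCODE vM21) and H3f3b (chr11:116021912-116027962, minus strand) each have 408 coding bases. They differ at 95 of them, 81 at the third codon position, so 76.7% of bases are identical. H2az1 (chr3:137864487-137866922, plus strand) and H2az2 (chr11:6427229-6444443, minus strand) each have 384 coding bases. They differ at 80, 69 of these at the third codon position, and 79.2% are identical. The first 90 coding bases of each gene are shown 5′ to 3′, from the GENCODE annotation, with the bases that differ within a pair in capitals.
H3f3a: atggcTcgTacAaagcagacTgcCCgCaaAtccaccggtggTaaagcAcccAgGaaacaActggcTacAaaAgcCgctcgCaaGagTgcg
H3f3b: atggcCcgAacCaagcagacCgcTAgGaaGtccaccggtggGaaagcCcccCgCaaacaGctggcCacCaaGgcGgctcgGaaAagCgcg
H2az1: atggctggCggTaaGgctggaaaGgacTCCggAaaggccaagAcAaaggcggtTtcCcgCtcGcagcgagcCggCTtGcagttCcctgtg
H2az2: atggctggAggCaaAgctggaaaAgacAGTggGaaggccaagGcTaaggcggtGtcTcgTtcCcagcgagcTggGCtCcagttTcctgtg
The longest run of identical coding bases was 23 in the H3.3 pair and 14 in the H2A.Z pair, shorter than the longer read of the libraries.

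Parts of some genes match other annotated genes. Per the methods, reads from the 5′ end of transcripts were kept where they mapped to a unique place. For internal reads, and for reads on overlapping gene models, the treatment is not given in the sources used here. Of all 45-base stretches of the annotated H3f3a transcripts, 27.9% also occurred in other genes, 421 in number, 44 of them pseudogenes, with H3f3c among the leading ones. The share was 36.9% for H2az1 and 42.3% for Hira (chr16:18877037-18970309, plus strand), the latter owed to 1 overlapping gene model on the same strand, Gm28539. It was 14.4% for H1f10, 7.87% for H3f3b, 6.09% for Macroh2a1, 5.92% for H1f0 and 0.0% for H1f8, H2az2 and Npm2. Levels of H3f3a, H2az1 and Hira are therefore uncertain by the reads they share, and H1f8, H2az2 and Npm2 share no stretch of this length. Shorter stretches were not examined, and 39 exon bases of Npm2 overlap Xpo7 on the same strand. Stretches were matched in both orientations, so the shares above include gene models on the opposite strand. Such models overlap H1f10, H1f0, H3f3a and Macroh2a1 and cannot be told apart from them without strand information. For H1f10, H1f0 and Macroh2a1 all shared stretches came from 1 such model each, so share and overlap are the same uncertainty. H1f10 overlaps Gm47286 on the same strand as well.

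The upstream sequence of the oocyte linker histone differs in composition from those of the 8 other genes that could be read. In RefSeq's GRCm38.p6 promoters, 9 of the 10 genes had an entry, all but Npm2, and the 250 bases before the start were read. The dinucleotide CG occurred 4 times before H1f8 and between 19 and 35 times before the other 8 genes, against a median of 6 over 32851 promoters. H1f8 was thus near the median of all promoters, and the other 8 were well above it. The promoter of H1f8 (chr6:115944681-115944930, plus strand) is shown as the one with few CG and that of H2az1 (chr3:137864237-137864486, plus strand) as one with many, with each CG in capitals.
H1f8: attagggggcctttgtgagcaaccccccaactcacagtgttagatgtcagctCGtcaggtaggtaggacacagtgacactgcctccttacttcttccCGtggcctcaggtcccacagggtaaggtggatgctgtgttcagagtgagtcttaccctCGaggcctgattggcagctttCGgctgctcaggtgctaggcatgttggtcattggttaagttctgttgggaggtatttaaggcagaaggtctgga
H2az1: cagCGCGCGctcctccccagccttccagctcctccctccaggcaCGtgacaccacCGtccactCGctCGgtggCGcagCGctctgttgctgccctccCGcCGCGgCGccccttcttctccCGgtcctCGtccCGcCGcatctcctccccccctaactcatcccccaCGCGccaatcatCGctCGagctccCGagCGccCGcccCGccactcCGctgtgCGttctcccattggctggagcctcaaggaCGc
No methylation or binding was measured in these data, so the sequences are shown as a description.

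Library totals ranged from 532945 to 2085222 counts in control-generated embryos (median 955806.5) and from 642321 to 3088396 in SER-generated embryos (median 1375557). The geometric mean total was 1.504 times as high in the SER-generated embryos. Levels are given as CPM, the count of a gene scaled to a common library total, so a higher level of a gene cannot be told apart from less RNA of other genes. The 2-cell identity of the libraries was checked by marker lists. All 18 genes of a list of oocyte-stored transcripts were detected in each group, at a summed 7846 to 21567 CPM in control-generated and 6984 to 18659 CPM in SER-generated embryos. A list of 17 transcripts of the 2-cell stage was also detected in full in each group, though not in each embryo, at 164 to 1999 and 365 to 1612 CPM. Of 12 cumulus cell genes 10 had a median count of 0, with Nr5a2 and Gja1 as the exceptions, and the list summed to 60.4 to 656 and 53.0 to 503 CPM. Of 8 sperm genes 7 had a median of 0, with Prm2 as the exception, and the list reached at most 24.1 and 30.9 CPM.

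Before any comparison, 2 embryos have to be set aside for separate description, 1 of each group. When the embryos were divided into 3 clusters by their most variable genes, control 4 and SER 15 formed a cluster of their own, beside clusters of 20 and 9 embryos. Their oocyte-stored transcripts were the second and the third highest of the 31 embryos, at a summed 20964 and 18659 CPM. Their 2-cell transcripts were the lowest and the next to lowest, at 164 and 365 CPM, with reads of 6 and 13 of the 17 listed genes. The summed cumulus list was also lowest in these embryos, at 60.4 and 53.0 CPM. Only Nr5a2 and Gja1 of that list had a median count above 0, at 245 and 15 reads over all embryos. The sum therefore cannot be read as an amount of cumulus cells. Results that rest on them are given with and without them.

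Several of the 10 genes were high in both of these embryos and several were low, but not all followed either pattern. H1f8 reached 569 CPM in control 4 and 792 CPM in SER 15, against a median of 105 CPM over the other 29 embryos, ranks 3 and 1 from the top. Npm2 reached 691 and 574 CPM against 199, the highest and second highest of all embryos. H1f0, a linker histone gene widely used in non-dividing cells, reached 324 and 576 CPM against 174. All 3 genes were thus high in both of these embryos, but control 3, whose mean log2 level of oocyte-stored transcripts was the next highest, had 158 CPM of H1f0. H2az1 stood at 36.2 and 8.18 CPM against a median of 286 in the others, from 24 and 21 reads. H2az2 stood at 12.1 and 37.0 CPM against 221, from 8 and 95 reads. Hira stood at 12.1 and 1.56 CPM against 65.1, from 8 and 4 reads. Both H2A.Z genes and Hira took the lowest 2 places of all 31 embryos there. The H3.3 genes differed from each other, since H3f3a had 46.8 and 13.6 CPM against 84.5, and H3f3b had 1083 and 1585 CPM against 1099. The 2 scarce genes had few reads. H1f10 had 6.04 and 0.0 CPM against 3.04, and Macroh2a1 had 10.6 and 13.6 CPM against 3.04. These values describe embryos that their own expression set apart, and no test was made of them.

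**Figure D1:**
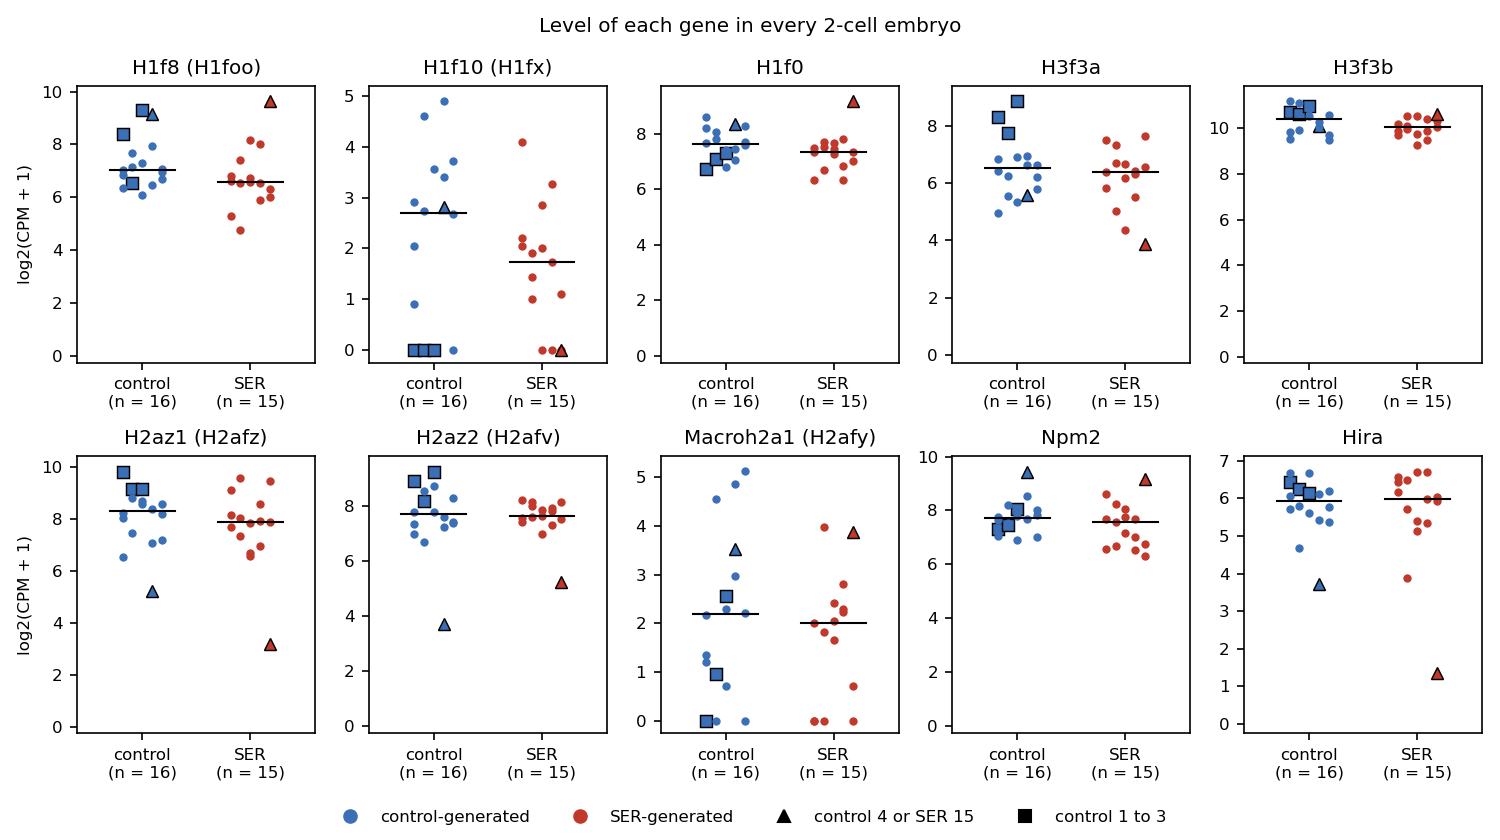
Level of each of the 10 genes in each embryo, as log2(CPM + 1) on the vertical axis, for 16 control-generated (blue) and 15 SER-generated (red) embryos, with the median as a line. Triangles mark control 4 and SER 15, which are at or near the top for H1f8, H1f0 and Npm2 and at the bottom for H2az1, H2az2 and Hira, and squares mark control 1 to 3, which hold the 3 highest values of H3f3a.

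Per kilobase of exon, H3f3b was by far the most abundant of the 10 genes. Its median was 369 CPM per kilobase, and it exceeded the next gene in 26 of 31 embryos. Npm2 (196), H2az1 (149), H2az2 (120), H1f8 (92.7) and H1f0 (85.6) followed. Neighbours in that group exceeded each other in only 17 to 20 of 31 embryos, so their order was not separated from the spread between embryos. H1f0 exceeded H3f3a (23.9) in 29 embryos, H3f3a exceeded Hira (10.1) in 28, and Hira exceeded H1f10 (2.50) in 24. Macroh2a1 was lowest, at 0.457, and H1f10 exceeded it in 22 embryos. H3f3b therefore supplied most H3.3 transcripts, whereas the H2A.Z genes were present at similar levels.

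Between the groups, none of the 8 genes that passed a filter on low counts was called different by edgeR's quasi-likelihood test at an adjusted p under 0.1, where 0.0% of the 8571 genes tested were called. At an unadjusted p under 0.05, 491 of all tested genes (5.73%) and none of the 8 passed, and DESeq2 called 49 of 8571 (0.572%), again none of the 8. All 8 estimates were below 0 for SER over control, at a median of -0.32 on the log2 scale, whereas over all tested genes the median was 0.02 and 47.3% lay below 0. These 8 values come from the same embryos and are not independent. When 3 control embryos picked after values had been seen were left out, 4 of the 8 changed sign, as described below. A p above the threshold does not show equal levels, so each difference is given with its 95% interval.

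**Figure D2:**
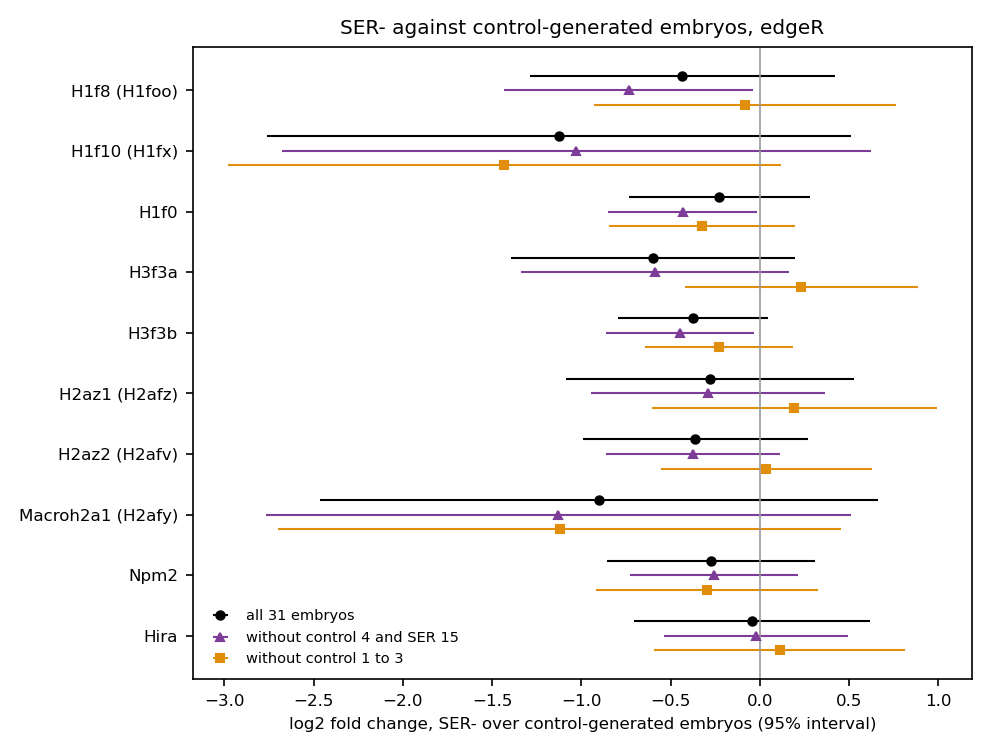
Log2 fold change of SER- over control-generated embryos for each gene on the horizontal axis, with 95% intervals from edgeR as bars, from all 31 embryos (circles), without control 4 and SER 15 (triangles) and without control 1 to 3 (squares). With all embryos every interval includes 0, and without control 1 to 3 the estimates of H3f3a, H2az1, H2az2 and Hira lie above 0.

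The oocyte linker histone H1f8 (chr6:115944938-115950236, plus strand, 6 exon blocks) ranged from 66.8 to 622 CPM in control-generated embryos (median 130) and from 26.5 to 792 CPM in SER-generated embryos (median 94.97). The groups overlapped over most of their range, and the highest value of each came from control 3 and SER 15. The log2 fold change was -0.43 (SE 0.42, 95% interval -1.29 to 0.42, adjusted p = 0.955 by edgeR). This estimate depended on single embryos. Without SER 15 it was -0.97, without control 3 it was -0.16, and without control 4 and SER 15 together it was -0.73 (SE 0.34, unadjusted p = 0.0393, adjusted p = 0.600 by edgeR). DESeq2 gave -1.01 (adjusted p = 0.273), but -0.46 when it was kept from replacing outlying counts.

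H1f0 (chr15:79028450-79030504, plus strand, a single exon) ranged from 104 to 384 CPM (median 196) in control-generated and from 78.7 to 576 CPM (median 161) in SER-generated embryos. SER 15 was the only SER-generated embryo above the highest control value. The log2 fold change was -0.23 (SE 0.25, 95% interval -0.73 to 0.28, adjusted p = 0.958 by edgeR), and without control 4 and SER 15 it was -0.43 (SE 0.21, adjusted p = 0.617). H1f0 was the one gene of the 10 that any alternative called. limma's voom with sample quality weights gave -0.53 (adjusted p = 0.0818), in a fit that called 848 genes, 9.89% of all tested, and the same fit without control 4 and SER 15 gave -0.57 (adjusted p = 0.0607), with 9.99% of genes called. H1f10, the other widely used linker histone gene (chr6:87980421-87981637, minus strand), ranged from 0.0 to 29.1 CPM (median 5.53) and from 0.0 to 16.2 CPM (median 2.32), and it had no reads in 5 control- and 4 SER-generated embryos. The median was 3 reads per embryo. SER 10, with 3088396 counts, and SER 15, with 2567720 counts, had none, and the role of depth was not tested. The fit of all genes gave -1.12 (SE 0.81, 95% interval -2.76 to 0.51).

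The H3.3 gene H3f3a ranged from 29.7 to 459 CPM (median 90.9) in control-generated and from 13.6 to 198 CPM (median 82.9) in SER-generated embryos. The medians were close, and the 3 highest values of all embryos belonged to control 1, 2 and 3, at 316, 212 and 459 CPM. The log2 fold change was -0.60 (SE 0.39, 95% interval -1.39 to 0.19, adjusted p = 0.928 by edgeR). Without these 3 embryos, which were picked after their H3f3a values had been seen, it was 0.23 (SE 0.32), the opposite direction. The same embryos also held 569 to 899 CPM of H2az1, 286 to 605 CPM of H2az2 and no read of H1f10. H3f3c, a copy that shares sequence with H3f3a, stood at 20.1 to 61.4 CPM in them (median 57.7) and at 0.0 to 28.8 CPM in the other 28 (median 4.19), so the ranges overlapped. Whether they belonged to one batch cannot be told from the labels.

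H3f3b ranged from 706 to 2314 CPM (median 1364) in control-generated and from 613 to 1585 CPM (median 1050) in SER-generated embryos. Its mean was 1384 ± 516 CPM (SD, n = 16) against 1095 ± 293 CPM (SD, n = 15), so the difference was smaller than the spread within the control group. It had the lowest p of the 8 tested genes, with a log2 fold change of -0.37 (SE 0.21, 95% interval -0.79 to 0.04, unadjusted p = 0.0784, adjusted p = 0.869 by edgeR). Leaving out control 4 and SER 15 gave -0.45, and leaving out control 1 to 3 gave -0.23.

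H2az1 ranged from 36.2 to 899 CPM (median 317) in control-generated and from 8.18 to 753 CPM (median 234) in SER-generated embryos. The lowest values were those of control 4 and SER 15, and the log2 fold change was -0.28 (SE 0.40, 95% interval -1.09 to 0.53, adjusted p = 0.968 by edgeR). H2az2 ranged from 12.1 to 605 CPM (median 207) and from 37.0 to 294 CPM (median 196), with a log2 fold change of -0.36 (SE 0.31, 95% interval -0.99 to 0.27, adjusted p = 0.936). Most SER-generated embryos lay within a narrow band of H2az2, whose SD of log2 CPM was 0.57 times that of the control group, or 0.47 times without control 4 and SER 15. The median of this ratio over all tested genes was 0.97 and 0.91. H2az2 had the lowest ratio of the 8 tested members. Of these 8, 3 had a lower SD in SER-generated embryos, where 54.2% of all tested genes did. Without control 4 and SER 15 it was 5 of the 8, where 60.4% of all tested genes did. Without control 1 to 3 the changes were 0.19 for H2az1 and 0.037 for H2az2. These embryos, picked after values had been seen, ranked 1 to 5 from the top for H2az1 and 1 to 7 for H2az2. Leaving out such high control embryos moves the estimate upward, so the change of sign is no independent check. With each embryo left out in turn the estimates stayed negative, at -0.47 to -0.087 for H2az1 and -0.45 to -0.18 for H2az2. Macroh2a1 (chr13:56073619-56136361, minus strand) was scarce, from 0.0 to 33.8 CPM (median 3.56) and from 0.0 to 14.8 CPM (median 3.04), with no reads in 3 and 4 embryos. The fit of all genes gave -0.90 (SE 0.78, 95% interval -2.46 to 0.66).

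Npm2 (chr14:70647302-70659244, minus strand, 10 exon blocks) ranged from 118 to 691 CPM (median 208) in control-generated and from 77.7 to 574 CPM (median 189) in SER-generated embryos. Control 4 and SER 15 held the highest value of each group. The log2 fold change was -0.27 (SE 0.29, 95% interval -0.86 to 0.31, adjusted p = 0.958 by edgeR) and -0.26 without both of these embryos. The closeness of these values came from embryos that pull in opposite directions, since the estimate was -0.036 without control 4 and -0.50 without SER 15. Hira ranged from 12.1 to 102 CPM (median 60.4) and from 1.56 to 104 CPM (median 62.5), almost the same range in both groups apart from the 2 lowest embryos. Its log2 fold change was -0.044 (SE 0.33, 95% interval -0.70 to 0.62, adjusted p = 0.993), which leaves room for a change of either sign. The SD of log2 CPM of Hira was 1.77 times as large in SER-generated embryos, and 1.33 times without control 4 and SER 15.

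The balance between paralogues was examined as a share of reads within each library, which does not move with the library total. H3f3a gave 8.31 ± 5.04% of H3.3 reads in control-generated embryos (SD, n = 16) and 7.78 ± 4.31% in SER-generated embryos (SD, n = 15). The difference of -0.53 percentage points was far below the spread (2-sided permutation test, p = 0.750, adjusted over the 3 shares p = 0.750), and it was 0.17 without control 3 and 1.12 without control 1 to 3. Single embryos ran from 1.27% to 18.7% and from 0.853% to 14.2%, so H3f3b gave most H3.3 reads in each of the 31 embryos. H2az1 gave 57.7 ± 9.40% of H2A.Z reads in control-generated and 51.7 ± 15.0% in SER-generated embryos, a difference of -5.96 percentage points (permutation p = 0.193, adjusted p = 0.580). Without control 4 and SER 15 this difference was -2.40. In those embryos the shares were at opposite ends, 75.0% of 32 reads in control 4 (95% Wilson interval 57.9 to 86.7%) and 18.1% of 116 reads in SER 15 (12.2 to 26.1%), so the same low H2A.Z total had a different makeup in each. Intervals cover counting error only. H1f8 gave 43.8 ± 17.9% of the reads of the 3 linker histone genes in control-generated and 40.3 ± 12.5% in SER-generated embryos (difference -3.50 percentage points, permutation p = 0.540, adjusted p = 0.750). Its highest shares were those of control 3, at 79.8% of 800 reads (95% Wilson interval 76.8 to 82.4%), and control 1, at 76.1% of 712 reads (72.9 to 79.1%). Without control 1 to 3 the difference had the opposite sign, at 1.51 percentage points.

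**Figure D3:**
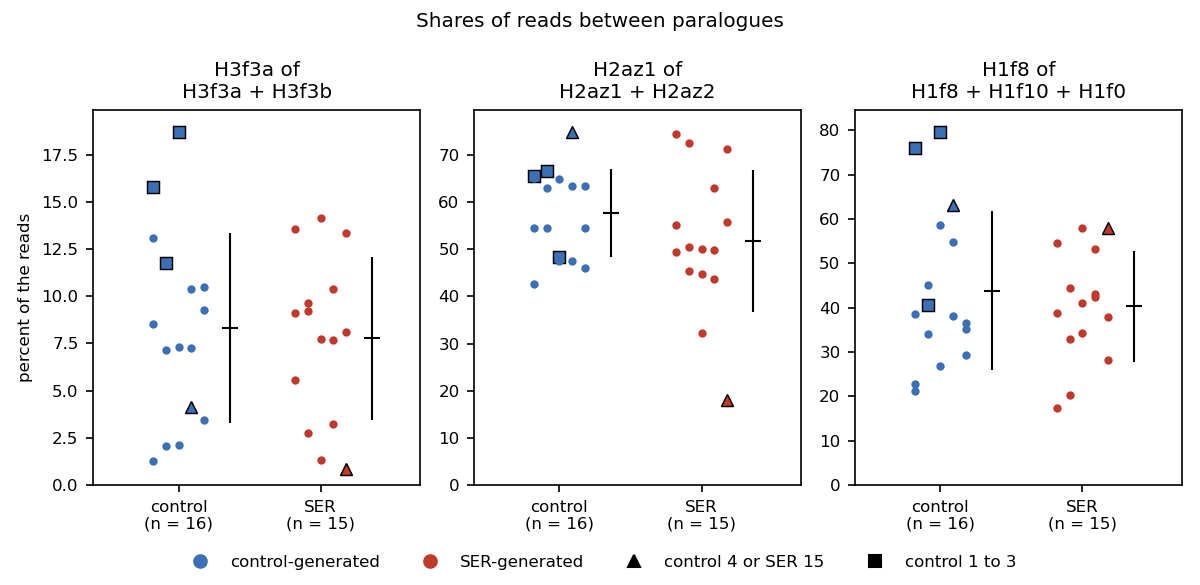
Percent of reads given by H3f3a among H3f3a and H3f3b, by H2az1 among both H2A.Z genes, and by H1f8 among the 3 linker histone genes, in each of 16 control-generated (blue) and 15 SER-generated (red) embryos, with mean and SD as bars. The groups overlap in each panel, H3f3a stays below 20% in every embryo, and SER 15 has the lowest and control 4 the highest H2az1 share.

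Over all embryos, though not within each group or cluster, H1f8 and Npm2 followed the oocyte-stored transcripts. Over all 31 embryos, Npm2 correlated with the mean log2 CPM of the oocyte-stored list with r = 0.84 and rho = 0.75 (permutation adjusted p of rho = 2.2e-04 over 44 correlations), and H1f8 with r = 0.81 and rho = 0.69 (adjusted p = 5.5e-04). The rho of Npm2 was above that of 99.4% of all tested genes, and that of H1f8 above 98.5%. Leaving out the 2 embryos farthest from the median of the gene gave r = 0.74 and 0.71. Without control 4 and SER 15 the rho values were 0.70 and 0.63 and still passed at an adjusted p under 0.05. The relation held within the estimated cluster of 20 embryos, with rho of 0.82 and 0.64, but not within the cluster of 9, where it was -0.23 and -0.40. Within groups, both passed in SER-generated embryos, Npm2 at rho = 0.89 and H1f8 at 0.73. Neither passed in control-generated embryos, where Npm2 gave 0.47 (permutation adjusted p = 0.182) and H1f8 0.61 (adjusted p = 0.0873). H1f8 and Npm2 also followed each other (r = 0.74, or 0.68 without the 2 farthest, rho = 0.68, adjusted p = 5.5e-04), with rho = 0.78 and 0.70 in the separate groups, 0.61 without control 4 and SER 15, 0.77 in the cluster of 20 and -0.23 in the cluster of 9. H1f0 followed the same list less closely (r = 0.62, rho = 0.50, adjusted p = 0.0219), and at rho = 0.39 it no longer passed without control 4 and SER 15. Of all tested genes, 20.7% had a rho with this list as far from 0 as that of H1f0 over all embryos. For the list of 2-cell transcripts none of the 8 genes passed by rho over all 31 embryos, but 5 passed by r. H2az1 (0.62), H2az2 (0.73) and H3f3a (0.39) had r = 0.29, 0.34 and 0.17 without the 2 embryos farthest from the median. Hira (r = 0.59) and H1f0 (r = -0.53) kept 0.53 and -0.45. Control 4, the lowest embryo for this list, was not among the 2 left out for Hira or for H1f0. Both values therefore still include it. Within control-generated embryos alone, H1f0 (rho = -0.77, permutation adjusted p = 0.0098), H3f3a (0.75, adjusted p = 0.0137) and H2az1 (0.74, adjusted p = 0.0152) passed by rho for this list, and within SER-generated embryos none did. In the cluster of 20, Npm2 passed for it (rho = 0.69), and in the cluster of 9, H1f8 did (rho = 0.98).

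The H2A.Z genes moved together and apart from H1f0. H2az1 and H2az2 correlated with r = 0.82, or 0.77 without the 2 farthest, and rho = 0.82 (permutation adjusted p = 2.2e-04), with rho = 0.78 without control 4 and SER 15, 0.66 in the cluster of 20 and 0.12 in the cluster of 9. H3f3a followed H2az1 (r = 0.75, or 0.68 without the 2 farthest, rho = 0.66, adjusted p = 7.9e-04) and still did without control 4 and SER 15, at rho = 0.63. H3f3a and H3f3b, which encode the same histone, showed no such relation (rho = -0.04, adjusted p = 0.848). H1f0 ran against H2az1 (r = -0.67, or -0.58 without the 2 farthest, rho = -0.56, adjusted p = 0.00990) and H2az2 (r = -0.60, or -0.53, rho = -0.54, adjusted p = 0.0122). These relations lost significance without control 4 and SER 15, where rho was -0.46 and -0.44, and were weak in the cluster of 20, at -0.13 and -0.17. Of 28 pairs of genes, 9 passed with all embryos and 3 without these 2.

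**Figure D4:**
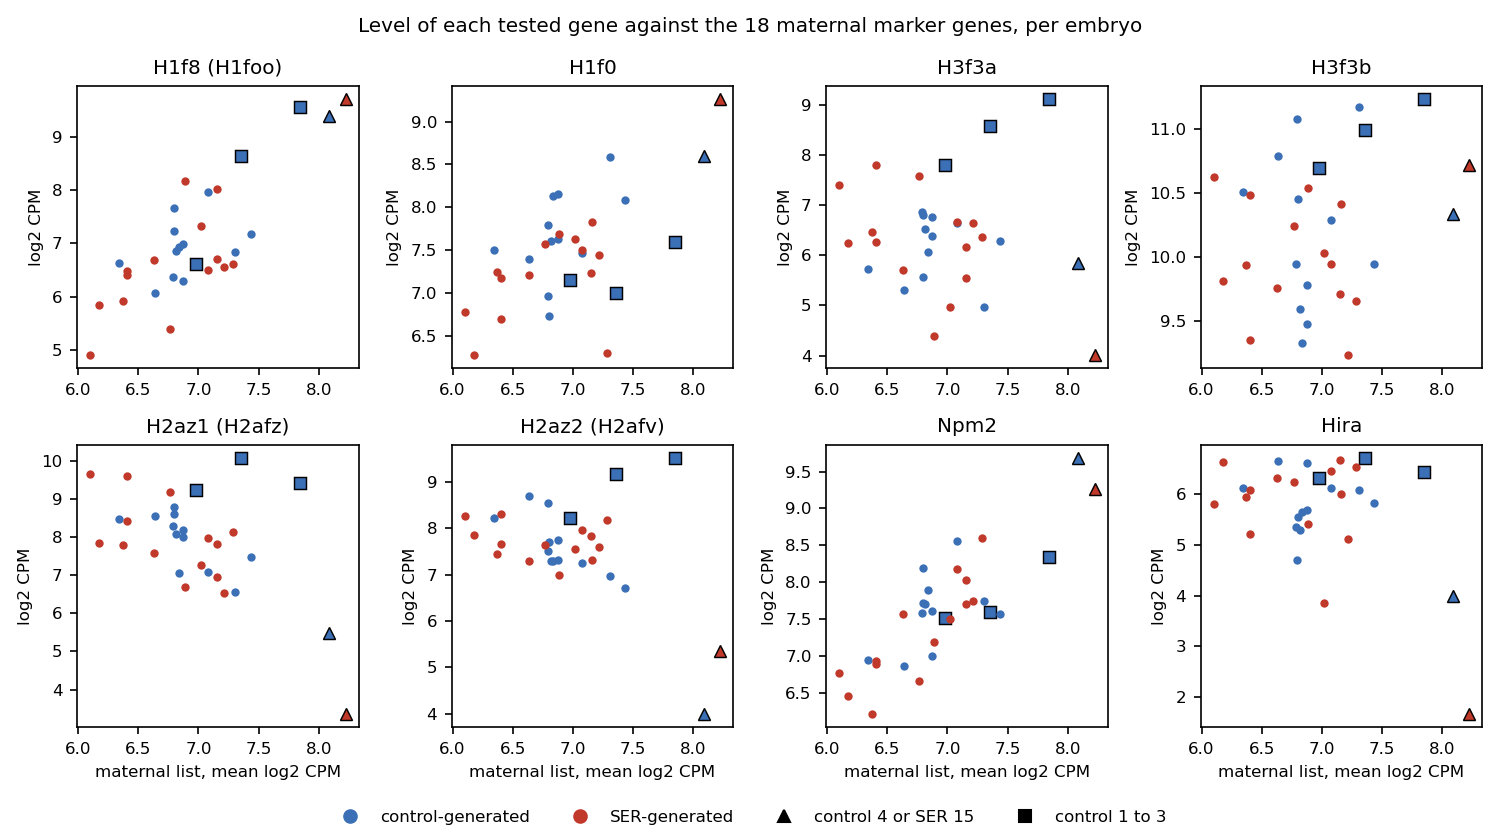
Log2 CPM of each of the 8 tested genes (vertical axis) against the mean log2 CPM of the 18 oocyte-stored marker genes (horizontal axis), 1 point per embryo, control-generated in blue and SER-generated in red. H1f8 and Npm2 rise along the axis, and the triangles, control 4 and SER 15, lie at its right end with low H2az1, H2az2 and Hira.

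The genes whose levels ranked the embryos most like each member are given as a description over 31 embryos, with no test. H1f8 was most like Mgst3, Coq10b and Parl, at rho of 0.87, 0.86 and 0.85. Npm2 was most like Cd200 (0.86), and H1f0 most like Cdc42se2 (0.81). Polr1d, a subunit shared by RNA polymerases I and III, was closest to both H2az1 (0.92) and H2az2 (0.88). Both values were above the rho of 0.82 between H2az1 and H2az2, so a relation of that size was not particular to the pair. H3f3a was most like Eloc (0.83) and the ribosomal protein gene Rps16 (0.83), H3f3b like Commd2 (0.79), and Hira like Serinc3 (0.78).

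Other histone chaperones, remodellers and variants were taken from a list of 48 genes, of which 47 were in the table and 40 were tested. None was called by edgeR, 3 had an unadjusted p under 0.05, where 5.73% of all tested genes did, and 23 of the estimates lay above 0 and 17 below it, where 47.3% of all tested genes lay below 0. The list had a median of 0.08 on the log2 scale, or 0.0022 without control 4 and SER 15. Among the partners of Hira, Ubn1 had a log2 fold change of 0.18 (SE 0.25), Cabin1 0.23 (SE 0.21), and the H3-H4 chaperone Asf1a -0.40 (SE 0.29). The estimate for Daxx, which deposits H3.3 with Atrx at heterochromatin, was -0.07, and that for Atrx was -0.52 (SE 0.26, adjusted p = 0.869), with 845 ± 446 CPM in control-generated (SD, n = 16) and 593 ± 209 CPM in SER-generated embryos (SD, n = 15). Srcap, the motor of a complex that puts H2A.Z into nucleosomes, had 0.50 (SE 0.25, adjusted p = 0.869), and Anp32e, a chaperone that removes H2A.Z, had 0.20 (SE 0.30). For Cenpa, the histone H3 of centromeres, it was -0.42 (SE 0.30), and for H2ax, the variant phosphorylated at DNA breaks, 0.30 (SE 0.47). Chaf1a, Npm1, Npm3, Nap1l1 and Nasp lay between -0.24 and 0.11. In control 4 and SER 15, Asf1b reached 536 and 849 CPM against a median of 206 in the other 29 embryos. Srcap stood there at 69.4 and 34.3 CPM against 320, Anp32e at 69.4 and 33.9 CPM against 228, and Cenpa at 83.0 and 41.7 CPM against 259. These 4 genes were chosen for mention after their values in the 2 embryos had been seen.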

How the data were processed

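Single 2-cell embryos were sequenced by Smart-seq3. The values the authors deposited are raw counts per gene symbol. Per the methods and the submitters' processing notes, reads with and without a molecular identifier were aligned with STAR to mm10, duplicates were removed with UMI-tools and Picard, and featureCounts counted reads per gene. Versions, annotation and strand setting are not given in the sources used here. Reads from inside a transcript lack that identifier, so intervals from counting understate the error.

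From these counts, edgeR 4.0.16 (R 4.3.3, quasi-likelihood, TMM, no covariates) compared 15 SER- with 16 control-generated embryos over 8571 genes kept by filterByExpr (minimum count 10, total 15), with Benjamini-Hochberg adjustment over all of them and a threshold of 0.1. H1f10 and Macroh2a1 did not pass this filter and take their values from the fit of all 17803 genes with a count. The batches of the study could not be entered, since no label names them. Alternatives used DESeq2 1.42.0 and limma 3.58.1. Shares and correlations (log2 CPM on TMM library sizes, prior count 2) used 2-sided permutation tests with 100000 resamples in scipy 1.17.1, in which the smallest possible p is 1e-05. Correlations were adjusted over 44. Clusters of embryos came from the 1000 most variable genes. The edgeR comparison was tested on simulated data, and the other steps were not.

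Totals of 532945 to 3088396 counts per library limit the precision of genes with few reads. No 2 libraries were identical, and none was left out. Named are all 10 genes, 15 genes fixed by name from the chaperone and variant list plus any past the threshold, and the 3 genes most like each member, of which some are printed. H3f3c, control 4, SER 15 and control 1 to 3 were singled out after values had been seen. The members and lists were chosen with earlier results of these data known.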

Additional observations from a re-analysis of the deposited data

How the results depend on the processing

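The count of 0 called genes among the 10 became 1, H1f0, with voom and sample quality weights (-0.53) and with voom without control 4 and SER 15 (-0.57), and stayed 0 elsewhere. Over the whole table the count of 0 became 504 with no filter, 24 with estimated clusters as a term, 49 with DESeq2, 34 with DESeq2 without outlier replacement, 848 with voom, 856 with voom without control 4 and SER 15, and 4 without control 1 to 3. In the chaperone and variant list it became 7 and 6 of 40 with these voom fits, where 9.89% and 9.99% of all tested genes were called. The cause of these differences was not tested.

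With voom the log2 fold changes turned positive for H3f3a (0.094), H2az1 (0.19), H2az2 (0.30) and Hira (0.24), and with voom without control 4 and SER 15 they were 0.064, 0.15, 0.23 and 0.23. Without control 1 to 3 they were 0.23, 0.19, 0.037 and 0.11, and the differences in share became 1.12 for H3f3a and 1.51 for H1f8 in percentage points. H1f8, H1f10, H1f0, H3f3b, Macroh2a1 and Npm2 kept a negative estimate under each alternative run, H1f8 between -1.11 with the library total as a covariate and -0.08 without control 1 to 3.

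Leaving out each embryo in turn gave 0 to 0 called genes in the 10, in the list and in the whole table. The log2 fold change of Hira then ran from -0.12 to 0.052, positive without control 1, 11 or 13 or SER 12 or 15. The H3f3a share difference ran from -0.995 to 0.17, positive without control 3, the H2az1 share from -7.59 to -3.55 and the H1f8 share from -5.01 to -1.10. The 3 correlations with the marker lists that passed (Npm2, H1f8 and H1f0 with the oocyte-stored list) became 5 with the library total regressed out, 4 with log2(CPM + 1), 4 with thinned counts, 2 within SER-generated embryos and 1 within the cluster of 9 embryos. Within control-generated embryos 3 passed, none of them among the original 3. The 9 passing pairs became 3 within control-generated embryos, 3 without control 4 and SER 15, 5 in the cluster of 20 and 0 in the cluster of 9, where H1f8 and Npm2 gave -0.23.

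Same-numbered embryos share only a number: over 15 numbers the correlation of their deviations ran from -0.37 to 0.49, and 2 of 15 embryos correlated best with their own number. With the replicate block 0 of 8361 genes were called, as without it, and the block gave share differences of -0.995, -6.95 and -4.91 percentage points for H3f3a, H2az1 and H1f8 (sign flips, permutation p = 0.459, 0.125 and 0.343). H1f10 and Macroh2a1 had few reads in most embryos, and whether depth limits them was not tested. Fits without control 4 and SER 15, without control 1 to 3 and without outlier replacement, and values within clusters, were chosen after seeing the data.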

Other observations

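Protamine 2, one of the proteins that histones replace on paternal DNA, was the only gene of the 8 on the sperm list with a median count above 0. Prm2 had a median of 3 reads per embryo and none in 9 of the 31 embryos, and Prm1 had none in 27. Of the 12 cumulus cell genes, Nr5a2 had a median of 245 reads and no embryo at 0. The source of these reads was not tested.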
